A study of Aspergillus nidulans with 24 samples.

Results

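The recombinant strains 1542 and AbfA of the filamentous fungus Aspergillus nidulans were compared directly after 8 h in maltose medium, without the parental libraries in the difference. The comparison took 6 of the 24 libraries of the series, 3 of each strain, and the 9201 of 10631 genes that had an FPKM (a fragment count scaled for gene length and library size) of at least 1 in at least 3 of the 24 libraries. Strain 1542 carries an introduced gene for a thermophilic mannanase, and strain AbfA one for an alpha-arabinofuranosidase. The series also holds strain BglC, with an introduced beta-glucosidase, and the parental strain A773 (pyrG89; wA3; pyroA4), each at 2 h and 8 h with 3 libraries. Mycelium was raised at 37 °C in minimal medium with 1% glucose and moved to 2% maltose, which the labels give as the activator of the promoter in front of the introduced gene. The 3 libraries of each group are labelled as biological triplicates. The labels name neither the promoter, nor the site or copy number of the introduced gene, nor how many transformants a strain stands for, so an effect of the enzyme cannot be told apart from other differences between these strains. The genotype of A773 is the only one written out, and for both recombinant strains the labels state only the enzyme made.

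A mannanase cuts the mannan backbone of plant hemicellulose, and an alpha-arabinofuranosidase takes arabinose side chains off arabinans and arabinoxylans. Both are secreted enzymes, made on the membrane of the endoplasmic reticulum and exported at the hyphal tip, so chaperones of that compartment are the genes usually watched in strains of this kind. On maltose A. nidulans uses the regulator AmyR to switch on its amylases and alpha-glucosidases. When hyphae meet air or run short of nutrients they form conidiophores under the regulators BrlA, AbaA and WetA, and pigments and hydrophobins coat the spores. Genes for many secondary metabolites lie side by side in clusters that are switched on together.

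The libraries of strain 1542 at 8 h held 14268724 to 20904178 reads in genes, and those of AbfA 7140261 to 15301767, with replicate 2 of AbfA the shallowest. In a gene of 1 kb, 1 read stood for 0.0478 FPKM in the deepest of the 6 and for 0.14 in the shallowest. On the log2(FPKM + 1) scale Pearson's r across genes was 0.984 to 0.992 between libraries of a strain and 0.965 to 0.978 between the strains. A difference is given below as log2 of 1542 minus AbfA ± SE on that scale, which understates differences of genes with low values, with n = 3 libraries in each group. Each adjusted p is from limma's two-sided test with Benjamini-Hochberg adjustment over all 9201 genes, and a gene is called under 0.05. The p-values measure the spread among cultures within the 8 groups of the series, over which the SE of each gene is pooled. Names in brackets after AN identifiers are list names of genes that have no symbol in the RefSeq table.

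The introduced genes were abundant in the strain that carries them and near 0 in the other. The mannanase gene had 943, 1067 and 803 FPKM in the 1542 libraries, against 0.0643, 0.0689 and 0.0732 FPKM in the AbfA libraries, where it had 1 or 2 reads. The AbfA gene had 0.0239, 0.35 and 0.0326 FPKM in the 1542 libraries, which is 1 to 10 reads, against 4920, 3750 and 5932 FPKM in the AbfA libraries. Neither gene went against the label of any of the 6 libraries. The mannanase gene took 0.163% to 0.217% of the reads in 1542, while the AbfA gene took 0.75% to 1.19% in AbfA. Another large difference was in pyrG, which was expressed in both strains and which A773 carries as a mutant allele. Its product, orotidine 5'-phosphate decarboxylase, completes the making of uridine monophosphate. pyrG had 154, 161 and 159 FPKM in 1542, against 756, 524 and 753 FPKM in AbfA (log2 −2.07 ± 0.23, adjusted p = 4.1e-05). The libraries of 1542 and AbfA did not overlap, as in 33.9% of all genes, and the call held in all 13 alternative analyses. At 8 h pyrG averaged 237 FPKM in BglC and 69.2 FPKM in A773. AN0565 (pyrABCN), for the first steps of the same pathway, had 24.8, 27.8 and 23.5 FPKM in 1542 and 31.1, 29.8 and 27.9 FPKM in AbfA (log2 −0.22 ± 0.18, adjusted p = 0.55).

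Of the 9201 genes 627 were called (6.81%), 188 higher in 1542 (2.04%) and 439 lower (4.77%). At least 2-fold differences were found in 272 of them (2.96%), 63 higher (0.685%) and 209 lower (2.27%). The libraries of the strains did not overlap for 3122 genes (33.9%), and for 621 of the 627 called. The median difference over all genes was −0.0328, with a median SE of 0.17. Median-of-ratios scaling between the libraries moved that median to 0.00612 and gave 671 called genes, 290 higher and 381 lower, so that 43.2% of the called genes were higher, against 30% without scaling. The genes lower in 1542 were mostly weakly expressed there. Over the genes called with at least a 2-fold difference, the median level of the higher ones was 82.2 FPKM in 1542 and 15.8 FPKM in AbfA, and that of the lower ones 3.53 FPKM in 1542 and 15.1 FPKM in AbfA. Few of the 627 called genes bear a name, as is true of all 10631 genes, of which 778 have a symbol in the RefSeq table. Of the called genes 44 have one, 18 of them higher in 1542 and 26 lower. The count of calls varied when single libraries were left out, and fewer libraries enter each such fit. It was 240 without replicate 1 of 1542, 260 without replicate 2 of 1542, 269 without replicate 2 of AbfA and 277 without replicate 3 of AbfA. Without replicate 3 of 1542 it was 637, and without replicate 1 of AbfA 434.

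**Figure D1:**
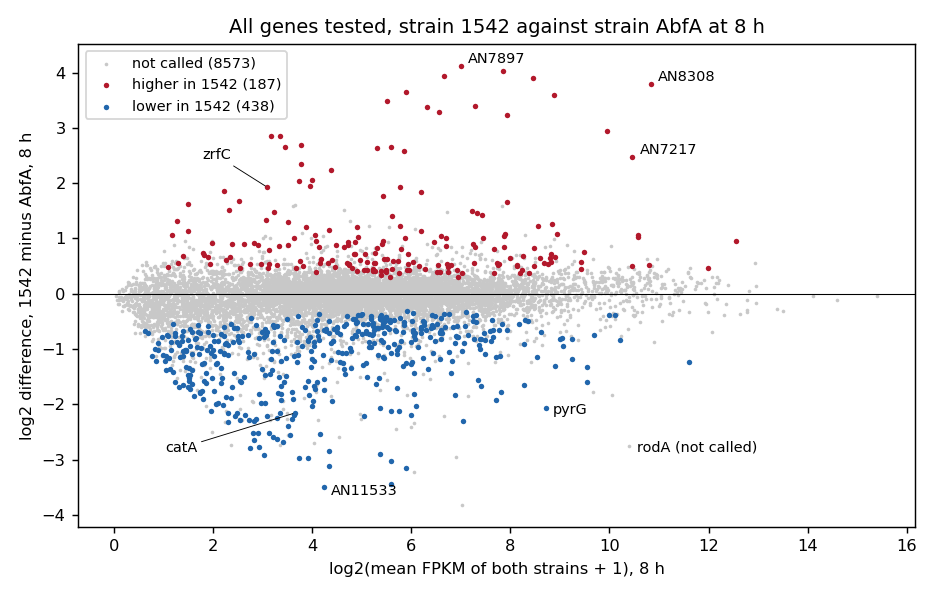
Each point is 1 gene, without the introduced genes, with the log2 of the mean FPKM of both strains at 8 h plus 1 on the x axis and the log2 difference 1542 minus AbfA on the y axis. Red points were called higher in 1542 and blue points lower, and the largest increases reach 4.12 (AN7897) at a high level, while the blue points crowd at low levels.

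A single stretch of 12 neighbours, AN7893 to AN7903 with AN11584 among them, was higher in 1542, and apart from the mannanase gene its AN7897 and AN7893 had the largest log2 differences of all genes. It was the sole run of at least 4 neighbouring genes in the RefSeq order that were all called the same way with at least a 2-fold difference. Apart from AN11584 these are the 11 genes entered as the dba polyketide cluster, a cluster known in A. nidulans for making azaphilone-type compounds. All 11 were called higher, as were 2.04% of all genes. Their median log2 difference was 3.39, with a range of 2.63 to 4.12, beside a median of −0.0328 over all genes. That the cluster differs between the strains was known when the list was drawn up.

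AN7897 was at 198, 319 and 202 FPKM in 1542, against 19.7, 8.29 and 11.7 FPKM in AbfA (log2 4.12 ± 0.80, adjusted p = 0.0054). AN7893, the first gene of the run, was at 350, 626 and 329 FPKM in 1542, against 34.8, 19.1 and 22.4 FPKM in AbfA (4.02 ± 0.86, adjusted p = 0.0086). AN7903 (dbaI), the last gene and entered as the polyketide synthase of the list, was at 14.2, 25.6 and 14.7 FPKM in 1542, against 2.53, 1.76 and 1.57 FPKM in AbfA (2.66 ± 0.49, adjusted p = 0.0042). In each of these genes the lowest 1542 library stood several-fold above the highest AbfA library, and replicate 2 was the highest of the 1542 libraries. AN7899 (3.64 ± 0.73), AN7898 (3.48 ± 0.62), AN7895 (3.39 ± 0.61), AN7902 (3.38 ± 0.72) and AN7901 (2.69 ± 0.45) were also called in all 13 alternatives. AN7896 (dbaA), entered as a regulator, was at 65.4, 77.2 and 60 FPKM in 1542, against 12.1, 9.79 and 8.32 FPKM in AbfA (2.63 ± 0.73, adjusted p = 0.034). Its call was the least firm of the run. It ended in 9 of 13 alternatives, among them the removal of any of the 6 libraries (adjusted p = 0.057 to 0.12), and ran from 0.00047 to 0.12 over all of them. The call of AN7894 (3.59 ± 0.94) ended without replicate 1 or 2 of 1542 or any replicate of AbfA (0.051 to 0.11). That of AN11584 (3.90 ± 0.94) ended without replicate 1 or 2 of 1542 or replicate 2 or 3 of AbfA (0.053 to 0.073), and that of AN7900 (2.85 ± 0.64) without replicate 2 of AbfA (0.051).

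The genes on either side of the run did not follow it. AN7892 was at 3137, 2423 and 5868 FPKM in 1542 and at 3327, 4619 and 4311 FPKM in AbfA (−0.19 ± 0.37, adjusted p = 0.82). AN7904 was at 15.9, 15.4 and 16.3 FPKM in 1542 and at 14.4, 15 and 19.7 FPKM in AbfA (−0.03 ± 0.25, adjusted p = 0.96). The 12 neighbours varied widely within other groups too, which enter their SE. Their summed level at 8 h was 2447, 3938 and 2460 FPKM in 1542 and 293, 176 and 199 FPKM in AbfA, beside 28.3, 37.8 and 19.4 FPKM in BglC and 256, 1495 and 246 FPKM in A773. One A773 library thus stood between the strains, while the other pair stood at the level of AbfA. At 2 h the sum was 1212, 1276 and 702 FPKM in 1542, against 841, 68.2 and 68.9 FPKM in AbfA, where replicate 1 overlapped the 1542 libraries. All 12 differences were positive at 2 h as well, from 1.02 to 3.15, and 3 of the 12 were called then (AN7895, AN7898 and AN7901), beside 2.95% of all genes called at 2 h.

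**Figure D2:**
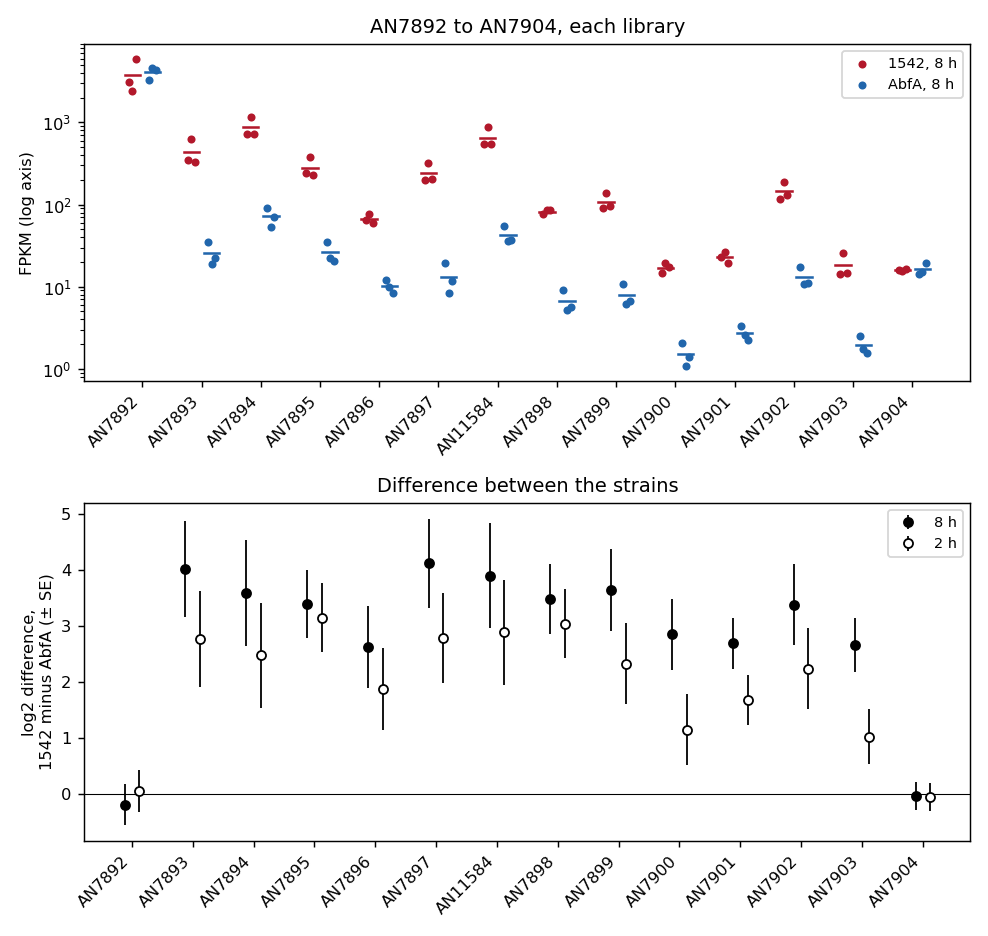
The upper panel shows the FPKM (log axis) of AN7892 to AN7904 in each library at 8 h, 1542 left of AbfA, with bars at the means of 3 libraries. The lower panel shows the log2 difference 1542 minus AbfA ± SE of the same genes at 8 h and 2 h, near 0 in both flanking genes and 2.63 to 4.12 at 8 h in the 12 between them.

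Outside this stretch the largest increases were in genes that the RefSeq table leaves without a symbol, so no role is given for them. AN8308 was the most abundant of them, at 3010, 2964 and 4201 FPKM in 1542, against 345, 202 and 198 FPKM in AbfA (3.80 ± 0.76, adjusted p = 0.0062). AN11702 was at 1608, 1801 and 1829 FPKM in 1542, against 341, 201 and 164 FPKM in AbfA (2.95 ± 0.67, adjusted p = 0.011). In both genes every 1542 library stood far above every AbfA library. AN8366 was at 405, 464 and 457 FPKM in 1542, against 64.6, 35.7 and 41.5 FPKM in AbfA (3.24 ± 0.80, adjusted p = 0.018). Its call ended without replicate 1 or 2 of 1542 or replicate 2 or 3 of AbfA (adjusted p = 0.061 to 0.078), and that of AN11702 without replicate 3 of AbfA (0.056). AN0528 and AN0531 lie close to each other. AN0528 was at 158, 176 and 234 FPKM in 1542, against 16.8, 8.6 and 9.82 FPKM in AbfA (3.93 ± 0.75, adjusted p = 0.0048), and AN0531 at 121, 165 and 223 FPKM in 1542, against 21.2, 14 and 13.8 FPKM in AbfA (3.28 ± 0.57, adjusted p = 0.0029). AN0529 between them was called too (1.95 ± 0.46, adjusted p = 0.014), but not without replicate 2 (0.062) or 3 (0.054) of AbfA, and AN0530 did not pass the filter. In AN8308, AN11702, AN8366, AN0528 and AN0531 the AbfA libraries kept one order, replicate 1 above both others, and every 1542 library stood far above it. In each of these genes replicate 2 of A773 at 8 h stood far above the other A773 libraries, as in the dba stretch. A773 held AN8308 at 48.6, 908 and 75.5 FPKM and AN11702 at 66.4, 1175 and 101 FPKM. AN8308, AN8366, AN11702, AN0528 and AN0531 were all called higher in 1542 at 2 h as well (log2 2.82 to 4.75).

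A further set of higher genes was picked after their values were seen, since none of the named genes among the largest increases lay outside the dba stretch. Among them were genes of zinc uptake, whose roles are known from Aspergillus fumigatus. zrfC, a zinc transporter gene, was at 12.5, 13.6 and 11.2 FPKM in 1542, against 2.47, 2.95 and 2.21 FPKM in AbfA (1.93 ± 0.20, adjusted p = 1.7e-05). Its neighbour aspf2, which encodes a zinc-binding protein of the cell surface, was at 65.5, 68.7 and 61.8 FPKM in 1542, against 18.2, 22.5 and 15.5 FPKM in AbfA (1.76 ± 0.23, adjusted p = 0.00023). zrfB, another zinc transporter gene, was at 53.7, 57.7 and 50.8 FPKM in 1542, against 25.7, 29.7 and 30.4 FPKM in AbfA (0.90 ± 0.12, adjusted p = 0.00023). These 3 genes varied little within each strain and did not overlap between the strains, as was so for 33.9% of all genes. Each was called in all 13 alternatives and also at 2 h (1.50 ± 0.20, 0.93 ± 0.23 and 0.76 ± 0.12). At 8 h zrfC averaged 3.18 FPKM in BglC and 3.95 FPKM in A773, and aspf2 13.3 FPKM in BglC and 9.02 FPKM in A773, so 1542 held the highest mean of the 4 strains for both. zrfB was at 43.4, 48.5 and 57.1 FPKM in A773, which overlapped 1542, and at a mean of 31.6 FPKM in BglC. AN1831, on the other side of aspf2, went the other way from a low level, at 0.24, 0 and 0.326 FPKM in 1542 and 0.983, 1.23 and 1.96 FPKM in AbfA (−1.0 ± 0.25, adjusted p = 0.019). That call ended without replicate 1 or 2 of 1542 or replicate 2 or 3 of AbfA (0.056 to 0.10) and with voom on recovered reads (0.058).

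Shorter rows of neighbours were also higher. AN3394, which has the symbol fmaG in the table, was at 35.9, 42.3 and 21.8 FPKM in 1542, against 6, 8.46 and 4.3 FPKM in AbfA (2.23 ± 0.24, adjusted p = 2e-05). The adjoining AN3395 (1.34 ± 0.27, adjusted p = 0.0065) and AN3396 (1.21 ± 0.23, adjusted p = 0.0049) were called with it in all 13 alternatives, whereas AN3393 on the far side was not called (−0.47 ± 0.26, adjusted p = 0.32). From AN2951 to AN2955 all 5 genes were called higher, as were 2.04% of all genes. The next genes on both sides, AN2950 (1.04 ± 0.39, adjusted p = 0.12) and AN2956 (−0.25 ± 0.16, adjusted p = 0.41), were not called. The 5 genes include agd3 and gtb3, homologues of genes that in A. fumigatus belong to the synthesis of the adhesive polysaccharide galactosaminogalactan. agd3 was at 214, 301 and 155 FPKM in 1542, against 89, 77.4 and 62.3 FPKM in AbfA (1.50 ± 0.33, adjusted p = 0.0091), and gtb3 at 58.3, 67.4 and 42.1 FPKM in 1542, against 32.3, 31.2 and 21.1 FPKM in AbfA (0.96 ± 0.22, adjusted p = 0.011). AN2951 to AN2955 were all called higher at 2 h too, and at 8 h A773 held agd3 at a mean of 222 FPKM and gtb3 at 62.9 FPKM, within the range of the 1542 libraries. Of the 5, AN2953 (0.64 ± 0.12) was called in all 13 alternatives. The calls of agd3 ended without replicate 2 of 1542 (adjusted p = 0.061) or replicate 3 of AbfA (0.051), those of gtb3 (0.055 to 0.072) and AN2951 (0.056 to 0.061) without these or replicate 1 of 1542, and that of AN2952 (0.57 ± 0.17) without any library but replicate 3 of 1542 (0.068 to 0.18) and with voom on recovered reads (0.054).

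Among other unnamed genes that were chosen after their values were seen, AN7217 was at 2451, 2204 and 2495 FPKM in 1542, against 401, 577 and 331 FPKM in AbfA (2.48 ± 0.37, adjusted p = 0.0011). AN6945 was at 25.8, 13.3 and 6.21 FPKM in 1542, against 0.912, 1.95 and 0.288 FPKM in AbfA (2.85 ± 0.33, adjusted p = 4.9e-05). The neighbours AN8893 (2.66 ± 0.42) and AN8894 (2.59 ± 0.48) were about equally changed. These 4 genes were called in all 13 alternatives and at 2 h. None of their libraries overlapped between the strains at 8 h, as was so for 33.9% of all genes.

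Genes of conidiophores and spores led the named genes that were lower in 1542. All 10 markers chosen for these cells had a lower mean in 1542 than in AbfA, with a median log2 difference of −1.40 beside −0.0328 over all genes, and 5 of the 10 were called lower, where 4.77% of all genes were. The wider lists around these markers were mixed. Of 12 conidiation regulators 2 were called lower and none higher, with a median of −0.09, and tmpA was at 1.32 ± 0.62 (adjusted p = 0.23). Of 10 genes of conidiophore pigments and hydrophobins 3 were called lower and none higher, with a median of −1.90, and the hydrophobin gene dewE was at 0.42 ± 0.89 (adjusted p = 0.84). The polyketide synthase gene of the spore pigment, AN8209 (pksP in the RefSeq table and known as wA in this species), was at 1.83, 4.9 and 1.57 FPKM in 1542, against 13.7, 15.2 and 25.5 FPKM in AbfA (−2.40 ± 0.46, adjusted p = 0.0053). The genotype of A773 names a mutant allele of wA, and the labels do not state which allele the recombinant strains carry. wetA, the regulator of spore maturation, was at 2.41, 3.7 and 1.29 FPKM in 1542, against 8.42, 10.6 and 13.3 FPKM in AbfA (−1.81 ± 0.32, adjusted p = 0.0032). AN8209 and wetA were both called in all 13 alternatives, and even the highest 1542 library stayed far below the lowest AbfA library.

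The other called markers were at low levels as well. ivoA, needed for the brown pigment of the conidiophore, was at 2.5, 1.3 and 1.95 FPKM in 1542, against 5.43, 8.38 and 9.47 FPKM in AbfA (−1.58 ± 0.39, adjusted p = 0.018). yA, the laccase of the green spore pigment, was at 8.26, 11.7 and 6.65 FPKM in 1542, against 14.7, 23.3 and 28.5 FPKM in AbfA (−1.21 ± 0.34, adjusted p = 0.038). abaA, the regulator of the spore-forming cells, was at 2.44, 2.9 and 1.55 FPKM in 1542, against 4.51, 4.45 and 6.56 FPKM in AbfA (−0.91 ± 0.22, adjusted p = 0.017). None of the 3 overlapped between the strains, as was so for 33.9% of all genes, but their calls did not hold when single libraries were left out. That of yA ended without any library but replicate 1 of AbfA (adjusted p = 0.053 to 0.16), that of abaA without replicate 1 or 3 of 1542 or replicate 3 of AbfA (0.052 to 0.096), and that of ivoA without replicate 2 of 1542 or replicate 2 or 3 of AbfA (0.073 to 0.092). Over the 13 alternatives the adjusted p ran from 0.019 to 0.16 for yA, 0.014 to 0.096 for abaA and 0.01 to 0.092 for ivoA.

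The hydrophobin genes of the spore coat had large differences that did not pass. rodA was at 483, 418 and 175 FPKM in 1542 and at 1381, 2672 and 2974 FPKM in AbfA (−2.76 ± 1.15, adjusted p = 0.17). dewA was at 24.4, 80.7 and 6.86 FPKM in 1542 and at 140, 226 and 236 FPKM in AbfA (−2.95 ± 1.23, adjusted p = 0.17). The 2 strains did not overlap in either gene, as in 33.9% of all genes, and the SE, which draws on all 24 libraries, was wide. Both passed in 2 of the 13 alternatives. brlA, the regulator at the head of the pathway, was at 54, 58.2 and 47.6 FPKM in 1542 and at 72.5, 92.2 and 116 FPKM in AbfA (−0.78 ± 0.44, adjusted p = 0.33). ivoB (−0.35 ± 0.42, adjusted p = 0.70) and vosA, a regulator of spore viability (−0.18 ± 0.16, adjusted p = 0.55), overlapped between the strains. No marker was at 0 in any of the 6 libraries. The summed level of the 10 markers was 821, 775 and 615 FPKM in 1542, against 1996, 3291 and 3819 FPKM in AbfA, and without the hydrophobins 314, 276 and 433 FPKM in 1542, against 475, 393 and 609 FPKM in AbfA, which overlapped. At 8 h the sum of the 10 markers was 294, 260 and 290 FPKM in A773, below every 1542 library, and 1537, 246 and 106 FPKM in BglC. Single markers were mixed: brlA averaged 23 FPKM in A773 and 53.3 FPKM in 1542, while wetA averaged 4.29 and 2.46 FPKM and abaA 3.59 and 2.3 FPKM. In these bulk samples fewer conidiophores and less of these RNAs per conidiophore cannot be told apart. The part of the marker difference between 1542 and AbfA in the other differences was not tested.

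**Figure D3:**
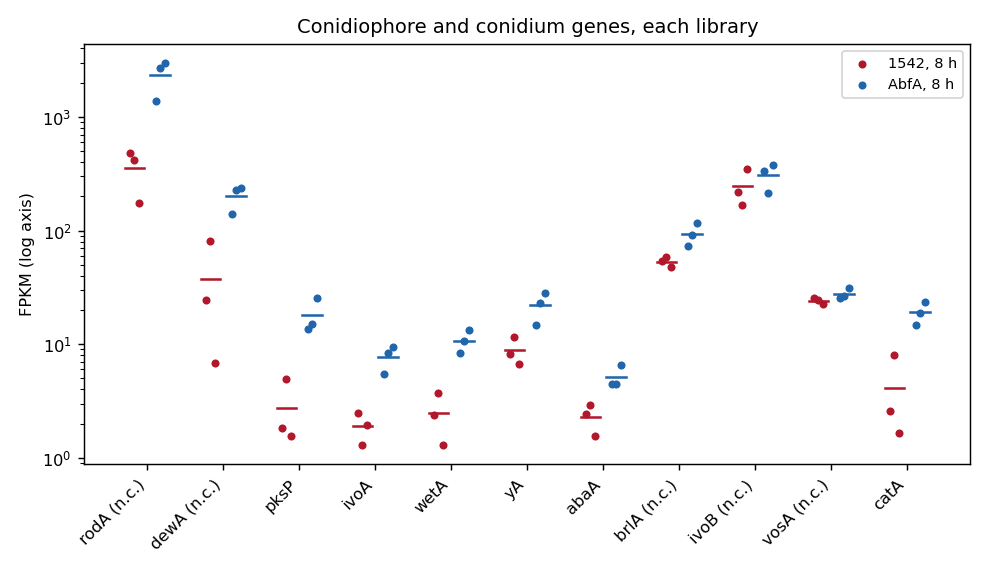
The FPKM (log axis) of the 10 conidiophore and spore markers and of catA is shown for each library at 8 h, 1542 left of AbfA, with bars at the means of 3 libraries. Genes marked n.c. were not called, and the 1542 points lie below the AbfA points in all genes but ivoB and vosA.

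catA, the catalase found in spores, was at 2.61, 8 and 1.66 FPKM in 1542, against 14.9, 18.8 and 23.4 FPKM in AbfA (−2.16 ± 0.43, adjusted p = 0.006). It was the only one of 14 genes of oxidative stress defence that was called, beside 6.81% of all genes, and it was called in all 13 alternatives. Its neighbour AN8638 was at 6.13, 25.3 and 4.36 FPKM in 1542, against 60.1, 80.1 and 107 FPKM in AbfA (−3.02 ± 0.70, adjusted p = 0.013), a call that ended without replicate 1 of 1542 (0.069) or replicate 3 of AbfA (0.06). The genes beyond this pair, AN8636 (−0.11 ± 0.36) and AN8639 (0.36 ± 0.27), were not called.

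The largest decreases of all were in genes without a symbol. AN11533 was at 0.404, 10.9 and 0.275 FPKM in 1542, against 19, 31.9 and 44.6 FPKM in AbfA (−3.49 ± 0.84, adjusted p = 0.017). AN10040 was at 3.3, 19.8 and 3.65 FPKM in 1542, against 50.6, 83.2 and 123 FPKM in AbfA (−3.45 ± 0.91, adjusted p = 0.027). AN10494 was at 1.12, 7.26 and 0.926 FPKM in 1542, against 18, 25.2 and 32.4 FPKM in AbfA (−2.98 ± 0.59, adjusted p = 0.006). In each of them replicate 2 of 1542 stood nearest to AbfA, and replicate 3 of AbfA was the highest of all 6 libraries. The same order was common: of the 208 genes lower in 1542 by at least 2-fold, without the introduced gene, replicate 2 was the highest 1542 library in 108 and replicate 3 the highest AbfA library in 122. AN2471 (−3.15 ± 0.79, adjusted p = 0.02) and AN0635 (−3.12 ± 0.69, adjusted p = 0.0099) were among the 6 largest decreases of genes without a symbol as well. AN10494 was called in all 13 alternatives. The calls of AN11533 (0.061 to 0.094), AN10040 (0.078 to 0.12) and AN2471 (0.064 to 0.095) ended without replicate 1 or 3 of 1542 or replicate 2 or 3 of AbfA, and that of AN0635 without replicate 1 of 1542 (0.068).

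Rows of neighbouring genes without symbols, picked after their values were seen, were lower in 1542 too. From AN5087 to AN5083, 6 of 7 neighbours were called lower, as were 4.77% of all genes, and none higher. AN10631 among them was at 9.09, 16.2 and 7.23 FPKM in 1542, against 35.5, 51.6 and 73.3 FPKM in AbfA (−2.21 ± 0.46, adjusted p = 0.0077), and AN10628 at 0.558, 2.35 and 0.997 FPKM in 1542, against 5.96, 10.2 and 11.7 FPKM in AbfA (−2.19 ± 0.38, adjusted p = 0.003). Both were called in all 13 alternatives. The calls of AN5086 (−2.63 ± 0.57) and AN10626 (−2.21 ± 0.50) ended without replicate 3 of AbfA (0.054 and 0.056), AN5086 also without replicate 1 of 1542 (0.052), and that of AN5083 (−1.06 ± 0.23) without replicate 2 of AbfA (0.062). AN5087 (−1.03 ± 0.25) ended without replicate 1 or 3 of 1542 or replicate 2 or 3 of AbfA (0.055 to 0.084).

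A longer row, from AN9246 to AN9259, held 15 genes that passed the filter, and all 15 had a lower mean in 1542. Of these 9 were called lower, as were 4.77% of all genes. AN9248 was at 1.5, 1.81 and 1.15 FPKM in 1542, against 8.02, 14.8 and 19.2 FPKM in AbfA (−2.52 ± 0.70, adjusted p = 0.035), and AN9253 at 2.84, 1.64 and 2.43 FPKM in 1542, against 10.7, 21 and 26.5 FPKM in AbfA (−2.56 ± 0.73, adjusted p = 0.04). The largest difference, in AN9252, just missed (−2.73 ± 0.83, adjusted p = 0.055). The strains did not overlap in these 3 genes, as in 33.9% of all genes. None of the 9 calls was firm. Those of AN9248 and AN9253 ended in 7 of 13 alternatives, without any library but replicate 1 of AbfA (0.078 to 0.13 and 0.071 to 0.15), with a pseudocount of 0.1 (0.091 and 0.10) and with voom (0.088 and 0.075), and the other 7 calls ended in 6 to 11 alternatives.

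Genes with a symbol among the largest decreases included coaT, which encodes a CoA transferase. coaT was at 6.76, 5.82 and 7.8 FPKM in 1542, against 27.7, 25.5 and 21.2 FPKM in AbfA (−1.73 ± 0.34, adjusted p = 0.0062), and it was called in all 13 alternatives. CweA was at 20.1, 37.7 and 14.2 FPKM in 1542, against 47.3, 199 and 86.1 FPKM in AbfA (−2.03 ± 0.55, adjusted p = 0.032), with replicate 2 of AbfA far above the other libraries. aspf13, named after an allergen of A. fumigatus, was at 99.3, 94.8 and 51 FPKM in 1542, against 307, 287 and 181 FPKM in AbfA (−1.67 ± 0.39, adjusted p = 0.015), beside a mean of 764 FPKM in A773. The call of aspf13 ended without replicate 3 of 1542 or replicate 1 or 2 of AbfA (0.057 to 0.063). That of CweA ended without replicate 1 or 3 of 1542 or replicate 2 or 3 of AbfA (0.079 to 0.19) and with only the 6 libraries in the fit (0.053).

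Besides dba, the lists of secondary metabolite clusters held few calls. The 8 genes of the monodictyphenone list, a cluster for anthraquinone-type compounds, all had a lower mean in 1542, with a median of −0.99. The largest difference of the list was in AN0146 (mdpC), at 0.165, 0 and 0.524 FPKM in 1542 and 9.09, 2.9 and 12.4 FPKM in AbfA (−2.74 ± 0.99, adjusted p = 0.11), while BglC held a mean of 38.6 FPKM. The one member called was AN10021 (mdpA), at 1.14, 1.96 and 2.67 FPKM in 1542, against 3.53, 3.54 and 5.74 FPKM in AbfA (−0.86 ± 0.25, adjusted p = 0.044). That call ended in 8 of 13 alternatives, with voom among them, without any library but replicate 3 of 1542 (0.063 to 0.22). The austinol list, a cluster for meroterpenoids, was entered with 5 genes, AN8379 and AN8381 to AN8384. Any genes of that pathway outside these 5 were not in the list. The 5 genes had a median of −0.99 and none was called by limma, with 4 at an unadjusted p under 0.05 and 0 called by voom. AN8384 (ausE) was at 2.59, 0.908 and 3.6 FPKM in 1542 and at 11.8, 13.9 and 15.2 FPKM in AbfA (−2.20 ± 0.82, adjusted p = 0.12). The strains did not overlap in any of these 5 genes, as in 33.9% of all genes.

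Among the genes of maltose use the RNA of the regulator differed. AN2016 (amyR) was at 45.3, 43.7 and 32.9 FPKM in 1542, against 29, 26.7 and 24 FPKM in AbfA (0.58 ± 0.11, adjusted p = 0.0054), and it was called in all 13 alternatives. Its mean at 8 h was 39.4 FPKM in BglC and 36.4 FPKM in A773, beside 40.6 FPKM in 1542 and 26.6 FPKM in AbfA. At 2 h amyR was not called (0.19 ± 0.11, adjusted p = 0.42). AN2017 (agdA), an alpha-glucosidase, was at 93.8, 90.5 and 81.3 FPKM in 1542, against 68.6, 65.5 and 61.3 FPKM in AbfA (0.44 ± 0.11, adjusted p = 0.02). Of the 9 genes of starch and maltose use these 2 were called higher, as were 2.04% of all genes, and none lower, with 8 of 9 means higher in 1542 and a median of 0.44. The amylases themselves did not pass, with AN3402 (amyB) at 17.6, 18 and 18.7 FPKM in 1542 and 11.4, 9.58 and 19.1 FPKM in AbfA (0.47 ± 0.46, adjusted p = 0.62), and AN8953 (agdB), another alpha-glucosidase, was at 761, 923 and 683 FPKM in 1542 and 448, 430 and 496 FPKM in AbfA (0.77 ± 0.25, adjusted p = 0.067). The call of AN2017 ended without replicate 1 or 2 of 1542 or replicate 2 or 3 of AbfA (0.065 to 0.097) and with only the 12 libraries of these strains in the fit (0.059). Of 9 genes of chitin and beta-glucan synthesis 1 was called, and of 10 genes of plant cell wall degradation 1 was called, beside 6.81% of all genes. The first was gel1, a glucanosyltransferase, at 1760, 1735 and 1410 FPKM in 1542, against 1222, 1236 and 1001 FPKM in AbfA (0.50 ± 0.12, adjusted p = 0.016). The second was the xylanase regulator xlnR, at 18.8, 17.3 and 18.7 FPKM in 1542, against 13.9, 13.7 and 13.3 FPKM in AbfA (0.39 ± 0.11, adjusted p = 0.039). The call of gel1 ended without replicate 1 or 2 of 1542 or replicate 3 of AbfA (0.077 to 0.092) and with only the 6 libraries (0.061). That of xlnR ended without any one of the 6 libraries (0.077 to 0.14).

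The other lists showed no called member. In 23 of the 32 lists, with 130 genes tested, limma called 0 genes, voom called 0 of the same genes, and 20 had an unadjusted p under 0.05, beside 20.8% of all genes with such a p. All 8 genes of folding in the endoplasmic reticulum were among them, with a median of −0.03. bipA, the chaperone of that compartment, was at 271, 300 and 305 FPKM in 1542 and at 325, 320 and 398 FPKM in AbfA (−0.25 ± 0.16, adjusted p = 0.41), and hacA, the regulator of the unfolded protein response, at 660, 568 and 378 FPKM in 1542 and 866, 801 and 656 FPKM in AbfA (−0.56 ± 0.27, adjusted p = 0.24). The splicing of hacA RNA, which governs that response, cannot be read from these values. The 5 heat shock chaperones had a median of −0.25 and overlapped between the strains. All 11 glycolysis genes had a higher mean in 1542, with small differences of 0.14 to 0.47 (median 0.23), and 7 did not overlap, where 13.9% of all genes were higher in 1542 without overlap. AN2875 (fbaA), the aldolase, was the largest of them, at 1100, 1263 and 1167 FPKM in 1542 and 825, 775 and 958 FPKM in AbfA (0.47 ± 0.16, adjusted p = 0.08). laeA, a global regulator of secondary metabolism, missed the threshold at 60.3, 72.8 and 47.6 FPKM in 1542 and 44.1, 41.2 and 43.2 FPKM in AbfA (0.46 ± 0.14, adjusted p = 0.054). Markers of sexual structures did not pass either, with nsdD at −0.46 ± 0.18 (adjusted p = 0.13) and AN7349 (mutA), a glucanase of Hülle cells, at 0.591, 1.95 and 0.251 FPKM in 1542 and 0.958, 1.73 and 4.48 FPKM in AbfA.

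**Figure D4:**
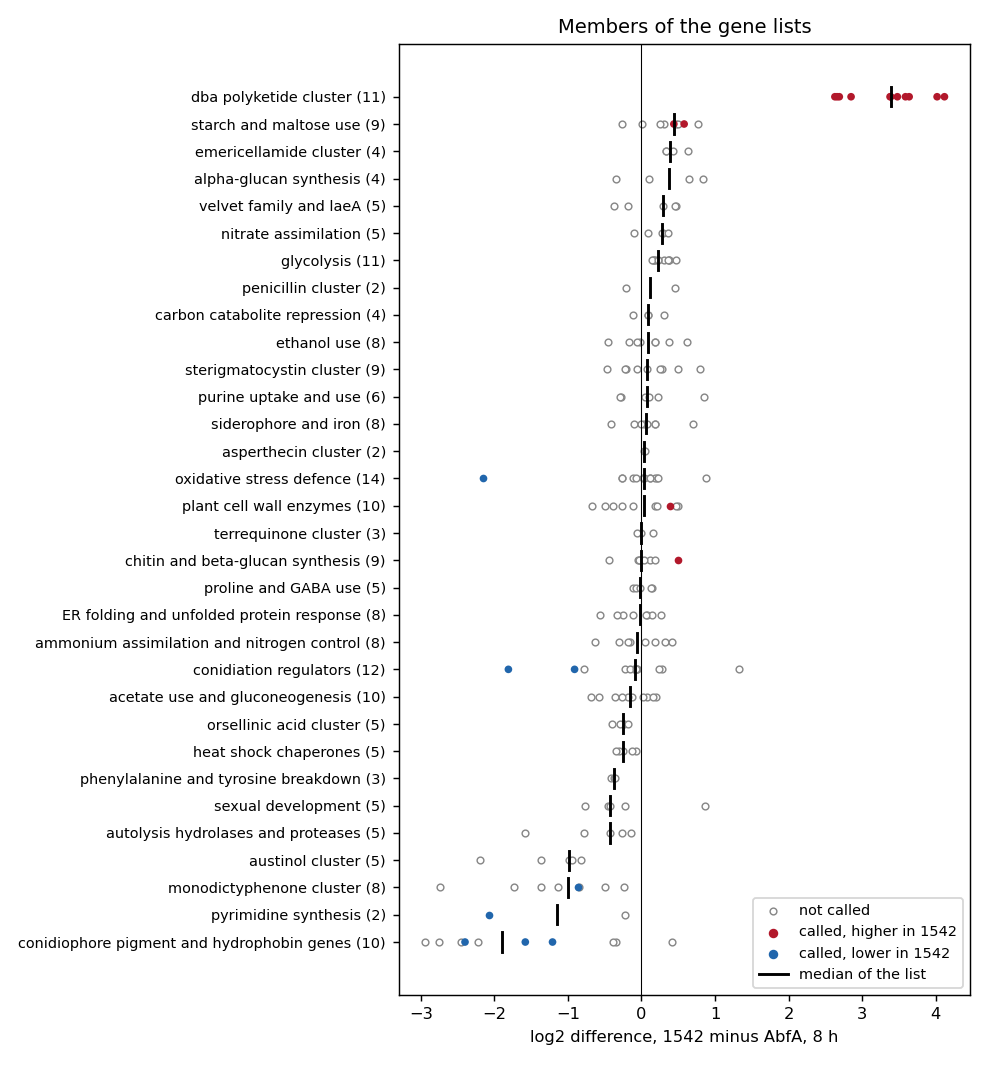
Each row is 1 gene list with the number of its genes that passed the filter, and each point is 1 gene at its log2 difference 1542 minus AbfA at 8 h. Filled points were called, vertical bars are the medians of the lists, and the dba list stands alone at a median of 3.39 while most lists centre near 0.

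The difference between the strains at 2 h rests on the means of other libraries and can be set beside that at 8 h. Each gene has the same SE at both times, pooled over all 24 libraries, so its calls at both times are not independent. At 2 h 271 genes were called (2.95%), 158 higher in 1542 (1.72%) and 113 lower (1.23%). Of these 127 were called at 8 h too, which is 46.9% of the calls at 2 h and 20.3% of those at 8 h, and all 127 went the same way. Among the 627 genes called at 8 h, 571 (91.1%) had the same sign at 2 h, beside 66.3% of all genes, and among the 272 with at least a 2-fold difference 260 had. A test of the change of the difference between the times called 0 genes (limma, smallest adjusted p = 0.35), with 650 at an unadjusted p under 0.05, and voom on recovered reads called 0 too. So no single gene was shown to differ between the strains at one time and not at the other. The spore genes illustrate this. rodA averaged 856 FPKM in 1542 and 747 FPKM in AbfA at 2 h (0.13 ± 1.15), against the difference of −2.76 at 8 h, yet the change had an unadjusted p of 0.092. wetA was at −0.88 ± 0.32 at 2 h (adjusted p = 0.14) and abaA at −0.03 ± 0.22 (adjusted p = 0.97), and the changes to 8 h had unadjusted p of 0.054 and 0.011. The genes with the smallest unadjusted p for that change were AN4646 (6.6e-05) and AN1557 (0.00014), named after their values were seen. AN4646 was at −0.58 ± 0.25 at 8 h (adjusted p = 0.18) and was called higher in 1542 at 2 h (1.18 ± 0.25, adjusted p = 0.014). AN1557 was called lower in 1542 at 8 h (−0.78 ± 0.14, adjusted p = 0.0032) and was at 0.14 ± 0.14 at 2 h (adjusted p = 0.66).

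**Figure D5:**
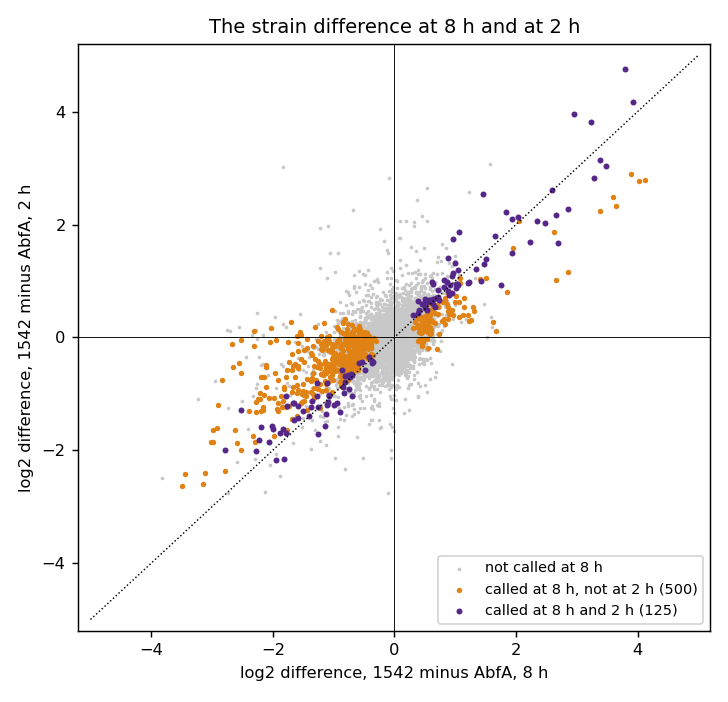
Each point is 1 gene, without the introduced genes, with the log2 difference 1542 minus AbfA at 8 h on the x axis and at 2 h on the y axis, and the dotted line marks equal differences. Genes called at both times lie in the quadrants of equal sign, and many genes called lower at 8 h lie above the line, with smaller differences at 2 h.

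The strains outside the comparison show on which side most differences lay, as a description of means with no test. Of the 62 genes higher in 1542 by at least 2-fold, without the introduced gene, the mean at 8 h was nearer to AbfA than to 1542 for 47 in BglC and for 48 in A773. Of the 208 lower genes the mean was nearer to 1542 than to AbfA for 150 in BglC and for 159 in A773. AN7217, which was higher in 1542, went against the majority in BglC, with a mean of 1542 FPKM there, and with it in A773, with a mean of 273 FPKM.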

How the data were processed

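The authors deposited 1 table of FPKM values for 10631 genes and 24 libraries. RNA was from mycelium and the kit was a stranded mRNA kit, per the labels' protocols. The tools listed in the submitters' processing notes are DESeq2, HTSeq 0.6.0, SAMtools 0.1.18, FastQC and bcl2fastq 1.8.4, without their roles. No aligner, build or strand setting is stated there (not given in the sources used here), so reads of overlapping, antisense or near-identical genes may not be separated. Whole reads were recovered from the steps of the FPKM values for 10631 of 10631 genes (100.0%, tolerance 0.02), and 9153 of 9176 gene lengths were multiples of 3, which makes them coding lengths.

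log2(FPKM + 1) of the 9201 genes with at least 1 FPKM in at least 3 libraries was fitted with limma 3.58.1 (R 4.3.3) as 8 group means over all 24 libraries, with 16 residual degrees of freedom, trended moderation and no scaling between libraries. The SE thus pools all 8 groups. In 1 simulated data set of 8966 genes for the comparison at 8 h the fit recovered 87.8% of 98 genes changed by a log2 of 1 and 100% of 99 changed by 2, with 12 false among 197 calls. Its reads were drawn around the mean levels of AbfA at 8 h in all groups, with the same spread setting for every gene. These shares therefore do not hold for genes with a wide spread, such as rodA (SE 1.15). The 13 alternatives were a pseudocount of 0.1, no filter, median-of-ratios scaling, fits of 6 or 12 libraries, voom on the recovered reads, a replicate block and leaving out each of the 6 libraries. voom called 486 genes.

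Symbols came from a RefSeq table of assembly ASM1142v1, used for names and gene order only, which held 9938 IDs and gave 778 a symbol. The 32 lists hold 226 genes entered from general knowledge, of which 72 have the same symbol in the table, 24 another and 130 none. Where the table gives a listed symbol to another gene that gene was used, and chitin synthases were kept under either naming. 3 listed IDs were not analysed here. The members and lists were chosen with earlier results of these data known. Genes named are the introduced genes and pyrG, the largest called differences with and without a name (8 and 6 in each direction), the largest of each list described, and genes of runs of neighbours. Others are said to have been picked after their values were seen, and this holds also for the rows around AN9246, AN5087, AN0528 and catA.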

Additional observations from a re-analysis of the deposited data

How the results depend on the processing

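Of the 627 genes called at 8 h, 152 were called in all 13 alternatives, 52 higher in 1542 and 100 lower. Of 81 called genes that the text or its rule names, 36 held in all 13, and none of the 81 changed sign. The count of calls ran from 240 to 637 when 1 library was left out, and that with at least a 2-fold difference from 136 to 271. This second count was 136 without replicate 1 and 170 without replicate 2 of 1542, and 155 without replicate 2 and 142 without replicate 3 of AbfA. Fewer samples enter these fits. When the fit held no libraries but the 6 compared, 981 genes were called, 515 of them shared with the 627, and the cause was not tested. The counts were 574 with a pseudocount of 0.1, 629 with no filter, 671 with scaling, 634 with 12 libraries and 486 with voom. The change of the difference between 2 h and 8 h gave 0 calls in every alternative that had both times.

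The replicate numbers were not taken to pair the samples, since same-numbered libraries of the strains had deviations with correlations of 0.22, −0.021 and 0.1. With the replicate number as a block 486 genes were called, 245 with at least a 2-fold difference, and the calls of AN7896 (dbaA, adjusted p = 0.053), AN2952 (0.083) and xlnR (0.063) ended, as did those of AN9246 (0.055), AN9250 (0.069), AN11206 (0.061) and AN9259 (0.072) in the row from AN9246. Of 416 values for lists under the alternatives, 367 stayed within 1.5 times the count given. Depth limits the lowest genes: replicate 2 of AbfA held 7140261 reads, and 50 of the 208 genes lower by at least 2-fold had a mean under 1 FPKM in 1542.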
